A study of Mus musculus with 6 samples.

Results

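Described here are 10 genes of the mouse left ventricle that belong to the glutathione and thioredoxin systems or are widely used readouts of the transcription factor NRF2: Gclc, Gclm, Gpx1, Gpx3, Gpx4, Txnrd1, Prdx1, Srxn1, Nqo1 and Hmox1. They were taken by symbol, 1 row each, from the deposited table of 34745 genes, and all 10 passed the filter on low counts that left 15198 genes for testing. The 6 libraries come from left ventricles of male wild-type C57BL/6 mice, an inbred strain, given as 8 weeks old. The label TAC, on 3 of them, stands for transverse aortic constriction, which narrows the aortic arch and loads the ventricle with pressure. The label Sham, on the other 3, stands for the same surgery without the ligature. Tissue is given as taken 6 weeks after the operation in both groups. Which ventricles were constricted is known from the labels alone, and a check of them is given below. The labels do not say that each library is a separate mouse, so a p-value reflects library-to-library spread, which may be technical.

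Cells hold NRF2, the product of Nfe2l2, at a low level because the adaptor KEAP1 marks it for degradation. Oxidants and electrophiles modify KEAP1, and NRF2 then reaches the nucleus, pairs with small MAF proteins and binds antioxidant response elements. Its usual targets make glutathione, regenerate thioredoxin and detoxify quinones and heme. In the heart these systems clear hydrogen peroxide and lipid peroxides that arise beside mitochondrial respiration.

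None of the 10 genes passed the test between the labelled groups, while the estimates of 9 of the 10 were lower in the TAC-labelled libraries. Hmox1 and Gpx1 had the largest estimates, each about 2 times as high in the Sham-labelled libraries. In counts scaled by edgeR to library size, they alone of the 10 had groups that did not overlap. On that scale, groups that did not overlap were found in 27.0% of all genes tested in either direction and in 13.6% with the Sham-labelled libraries higher. Prdx1 had an estimate near 0. The test was edgeR's quasi-likelihood test with Benjamini-Hochberg adjustment over all genes at a threshold of 0.05, which called 1.43% of the genes tested. At an unadjusted p under 0.05 it gave 2 of the 10, Hmox1 and Gpx1, against 20.9% of all genes. DESeq2 called these same 2 genes, against 7.56% of the genes it adjusted, and limma on log2(FPKM + 0.1) called none, against 1.26% of all genes. None passed in edgeR with the replicate number as a block, against 0.270% of all genes.

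The labels themselves need care. Nppa, Acta1 and Thbs4, which are known to rise in the pressure-loaded ventricle, were higher in the Sham-labelled libraries: 12.96-fold for Nppa (adjusted p = 0.0222), 9.41-fold for Acta1 (adjusted p = 0.0448) and 24.8-fold for Thbs4 (adjusted p = 0.00792), all in edgeR. In edgeR these calls depended in part on single libraries, although all 3 genes kept their sign. Nppa did not pass without TAC 1, TAC 2 or TAC 3 (adjusted p from 0.0719 to 0.0817), and leaving out the library labelled Sham 2 gave 8.13-fold. Acta1 passed without TAC 3 (adjusted p = 0.033) and in no other fit with a library left out (adjusted p from 0.0504 to 0.121). Thbs4 did not pass without TAC 1 (adjusted p = 0.0577), a fit in which no gene at all passed. It passed with any other library left out (adjusted p from 0.000192 to 0.0464). With the replicate number as a block, Nppa and Acta1 did not pass (adjusted p = 0.0734 for each) and Thbs4 did (0.0138). DESeq2 called all 3 (adjusted p = 3.18e-08 for Nppa, 8.14e-06 for Acta1 and 5.98e-55 for Thbs4). Groups are therefore named by their labels alone, and every direction is that of the labels. Of the 217 genes past the threshold, 168 had their higher level under the Sham label and 49 under the TAC label (296 and 42 with library totals not scaled by TMM, edgeR's trimmed-mean scaling). Library totals were 17399510 to 28401399 counts, and the library labelled TAC 3 stood apart on the second principal component (21.8% of the variance). The first component (44.9%) separated the labels. On it the Sham-labelled libraries ran from 13.85 (Sham 1) to 50.96 (Sham 2) and the TAC-labelled ones from -42.05 (TAC 3) to -24.26 (TAC 1). Cardiac muscle markers were abundant in every library, with 8 of them summing to between 107200 and 153700 CPM, counts scaled to library size. Levels below are CPM after TMM scaling unless FPKM is named, which divides by gene length as well.

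RefSeq promoter windows (GRCm38.p6, from 250 bases before to 50 bases after a start) matched 8 of the 10 genes: Gclm, Gpx1, Gpx3, Gpx4, Txnrd1, Prdx1, Srxn1 and Nqo1, in 13 windows. They were searched on both strands for the core of the antioxidant response element, TGACNNNGC, since that is the letter pattern bound by NRF2 with its MAF partner. The pattern was present in a window of 4 of the 8 genes, and in 13.99% of all 27025 genes with a window. In all 4 it lies on the strand opposite to the gene, so on the gene's strand it reads GCNNNGTCA. The 4 stretches below are the gene's strand, 5′ to 3′, with that core in capitals.
Gclm, chr3:122245398-122245456: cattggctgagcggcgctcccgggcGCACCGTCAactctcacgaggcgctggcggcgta
Prdx1, chr4:116685441-116685499: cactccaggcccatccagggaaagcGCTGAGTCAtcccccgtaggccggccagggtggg
Txnrd1, chr10:82859089-82859147: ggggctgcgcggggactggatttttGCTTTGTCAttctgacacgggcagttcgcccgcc
Srxn1, chr2:152105527-152105573: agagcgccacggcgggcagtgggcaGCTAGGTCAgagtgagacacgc
All 4 genes lie on the plus strand of the chromosome. In Gclm and Prdx1 the core begins 134 and 133 bases before the start, in Txnrd1 92 bases before it, and in Srxn1 28 bases after it. Of the 3 starts that RefSeq gives Txnrd1, 1 has the core, and the 4 windows of Gpx4 and the single windows of Nqo1, Gpx1 and Gpx3 do not hold these letters. A match is a letter pattern and not a measured binding site, and the pattern can lie outside such a window. The 4 genes with the core in a window had log2 differences from -0.35 (Gclm) to 0.05 (Prdx1), and none of the 4 passed the test.

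**Figure D1:**
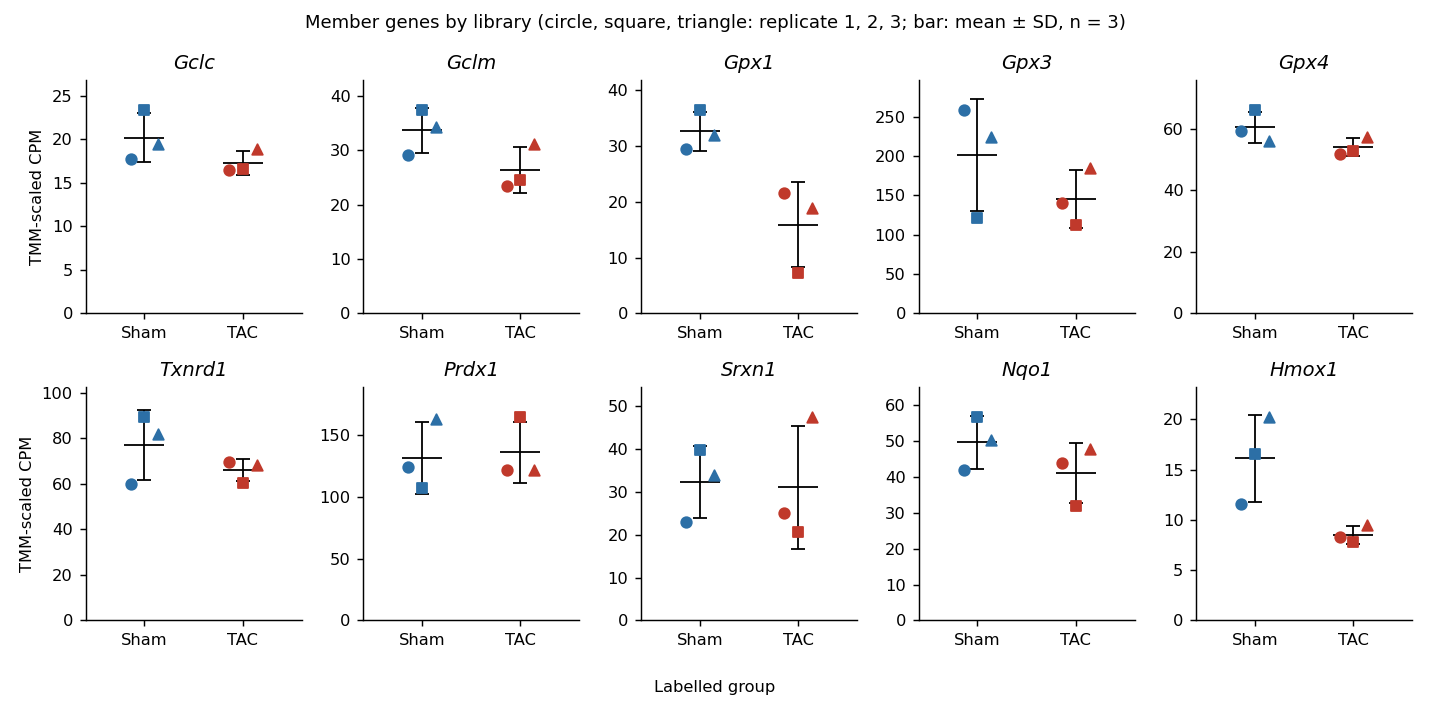
TMM-scaled CPM (vertical axes, from 0) of each of the 10 genes in the 3 Sham-labelled libraries (blue) and the 3 labelled TAC (red). Circles, squares and triangles are replicates 1, 2 and 3, and bars are the mean ± SD (n = 3). The groups do not overlap for Hmox1 and Gpx1 and overlap for the other 8 genes.

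Glutathione is made in a rate-limiting step by glutamate-cysteine ligase, whose catalytic subunit is encoded by Gclc and whose modifier subunit by Gclm. Gclc (chromosome 9, 77754535 to 77794485 on GRCm38) had 16.4, 16.6 and 18.9 CPM in TAC 1, 2 and 3 and 17.8, 23.4 and 19.5 CPM in Sham 1, 2 and 3. The groups overlapped, because Sham 1 lay below TAC 3 (log2 difference, TAC minus Sham, -0.22, SE 0.14, adjusted p = 0.412 in edgeR). Gclm (chromosome 3, 122245557 to 122270732) had 23.4, 24.6 and 31.1 CPM in TAC 1, 2 and 3 and 29.2, 37.4 and 34.3 CPM in Sham 1, 2 and 3. Again Sham 1 lay below TAC 3 and the other libraries were ordered by label (log2 difference -0.35, SE 0.15, adjusted p = 0.243 in edgeR). The subunits followed each other over the 6 libraries, with Pearson's r = 0.935 between their log2 CPM, the highest of the 45 pairs among the 10 genes. This is a description over 6 libraries that share their depth and group difference, with no test.

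Per length, the catalytic subunit was the more abundant in every library. This order rests on the lengths behind the FPKM, 3423 bases for Gclc and 8279 for Gclm, since in CPM Gclm was the higher in every library. The ratio of Gclc to Gclm FPKM was 1.70, 1.64 and 1.47 in TAC 1, 2 and 3 and 1.48, 1.51 and 1.37 in Sham 1, 2 and 3. Its means were 1.602 ± 0.118 and 1.45 ± 0.0717 (SD, n = 3), and the groups overlapped (exact two-sided permutation test, p = 0.3, where 3 against 3 libraries cannot go below 0.1).

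Glutathione peroxidases use glutathione to reduce peroxides, and Gpx1, Gpx3 and Gpx4 all encode enzymes with selenocysteine at the active site. Gpx1, the cytosolic and mitochondrial enzyme for hydrogen peroxide (chromosome 9, 108338903 to 108340343), had 21.5, 7.18 and 19.0 CPM in TAC 1, 2 and 3 and 29.5, 36.4 and 32.0 CPM in Sham 1, 2 and 3. All TAC-labelled libraries lay below all labelled Sham in Gpx1. The library labelled TAC 2 was the lowest by far, with 141 counts against 373 and 445 in TAC 3 and TAC 1. The means were 15.9 ± 7.65 and 32.7 ± 3.50 CPM (SD, n = 3), a fitted 2.05-fold difference (log2 difference -1.04, SE 0.35) that did not pass in edgeR (adjusted p = 0.159). DESeq2 called it at adjusted p = 0.0372. Without TAC 2 the log2 difference was -0.69 (edgeR adjusted p = 0.133). The FPKM of Gpx1 divides by a length of 3412 bases, although the listed span of the gene is 1441 bases. Which of these lengths fits the counted reads was not tested. Such a length longer than the span was found in 775 of 13851 genes (5.60%) with at least 20 counts in TAC 1.

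Gpx3, the secreted plasma-type peroxidase (chromosome 11, 54902453 to 54910377), was the most abundant of the 10 per length. It had 139.6, 112.2 and 184.3 CPM in TAC 1, 2 and 3 and 258.2, 121.3 and 223.5 CPM in Sham 1, 2 and 3. Sham 2 stood apart from the other libraries of its group and lay among the TAC-labelled libraries (log2 difference -0.47, SE 0.29, adjusted p = 0.398 in edgeR). Without Sham 2 the log2 difference was -0.73 (adjusted p = 0.230), and without Sham 1 it was -0.25 (adjusted p = 0.672). Gpx4, which reduces lipid hydroperoxides in membranes and guards against ferroptosis (chromosome 10, 80047166 to 80056439), was the steadiest of the 10, with a highest library 1.27 times the lowest. It had 51.9, 52.7 and 57.4 CPM in TAC 1, 2 and 3 and 59.1, 66.0 and 56.1 CPM in Sham 1, 2 and 3 (log2 difference -0.16, SE 0.11, adjusted p = 0.432 in edgeR). Only TAC 3 and Sham 3 broke the order of the groups in CPM, and in deposited FPKM, without TMM scaling, its groups did not overlap (17.8 to 20.3 against 21.2 to 23.4). The share of all genes whose groups do not overlap in FPKM was not computed. RefSeq names pseudogenes of Gpx4 and of Prdx1, and reads shared with such copies would leave the counts of both genes uncertain.

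The thioredoxin arm carries electrons from NADPH through thioredoxin reductase to peroxiredoxins. Txnrd1, the cytosolic reductase and also a selenocysteine enzyme (chromosome 10, 82859206 to 82897724), had 69.5, 60.4 and 68.2 CPM in TAC 1, 2 and 3 and 59.9, 89.2 and 82.0 CPM in Sham 1, 2 and 3. Sham 1 was the lowest of all 6 libraries and Sham 2 the highest (log2 difference -0.22, SE 0.16, adjusted p = 0.463 in edgeR). Prdx1, an abundant peroxiredoxin that reduces hydrogen peroxide (chromosome 4, 116685544 to 116700822), had 121.4, 164.0 and 121.9 CPM in TAC 1, 2 and 3 and 124.2, 106.6 and 162.8 CPM in Sham 1, 2 and 3. TAC 2 and Sham 3 were both high, so the spread lay within the groups rather than between them (log2 difference 0.05, SE 0.19, adjusted p = 0.907 in edgeR; below 0 with library totals not scaled by TMM and with limma on log2 FPKM). Srxn1 encodes sulfiredoxin, which restores over-oxidised peroxiredoxins (chromosome 2, 152105516 to 152111376). It had 25.1, 20.8 and 47.5 CPM in TAC 1, 2 and 3 and 23.1, 39.8 and 33.95 CPM in Sham 1, 2 and 3. The library labelled TAC 3 was the highest of the 6, about 2 times TAC 1 and TAC 2. Its log2 difference of -0.05 (SE 0.32, adjusted p = 0.943 in edgeR) was -0.49 without TAC 3 (adjusted p = 0.303).

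Nqo1 and Hmox1 are the classical detoxification targets. Nqo1, a quinone reductase (chromosome 8, 107388225 to 107403206), had 43.8, 31.8 and 47.9 CPM in TAC 1, 2 and 3 and 42.0, 56.7 and 50.5 CPM in Sham 1, 2 and 3. Sham 1 lay between the TAC-labelled libraries (log2 difference -0.27, SE 0.18, adjusted p = 0.430 in edgeR). Hmox1, the inducible heme oxygenase that degrades heme to biliverdin, iron and carbon monoxide (chromosome 8, 75093591 to 75100596), had 8.27, 7.79 and 9.51 CPM in TAC 1, 2 and 3. It had 11.6, 16.5 and 20.2 CPM in Sham 1, 2 and 3, all above the TAC-labelled libraries. The raw counts behind these values were 153 to 187 against 243 to 468.

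The means of Hmox1 were 8.53 ± 0.887 and 16.1 ± 4.30 CPM (SD, n = 3), a fitted 1.89-fold difference (log2 difference -0.92, SE 0.21). It had the smallest p of the 10 genes, with an edgeR adjusted p of 0.0807, and did not pass. Without the library labelled Sham 1, its lowest in that group, it passed (log2 difference -1.11, adjusted p = 0.0390, in a fit that called 2.57% of all genes), and DESeq2 called it on all 6 libraries (adjusted p = 0.00621). Over the other alternatives the adjusted p ran from 0.0517 to 0.222, always with the same sign.

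**Figure D2:**
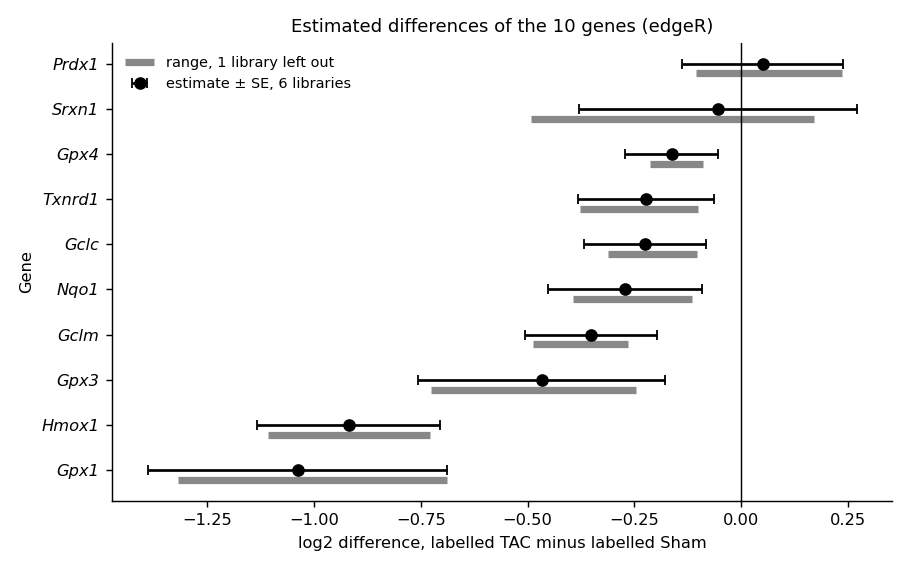
Log2 difference (horizontal axis, labelled TAC minus labelled Sham) of each of the 10 genes, with black points and bars for the edgeR estimate ± SE over 6 libraries and grey bars for the range when 1 library is left out. Hmox1 and Gpx1 sit near -1, and only Prdx1 and Srxn1 have grey ranges that cross 0.

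The 10 genes had a median log2 difference of -0.25, against 0.0075 for all genes tested, and 9 of 10 estimates were negative, against 49.1% of all genes. With library totals not scaled by TMM, and with limma on log2 FPKM, all 10 were negative. The median of all genes was also lower there, at -0.057 without TMM and -0.053 with limma on log2(FPKM + 0.1). The negative sign of Nqo1, Hmox1, Gclc, Gclm, Txnrd1, Gpx1, Gpx3 and Gpx4 held in each of the 16 alternatives. Of the 10 genes, 7 had their lowest level among the Sham-labelled libraries in Sham 1, against 36.0% of all genes tested, and 7 had their highest in Sham 2, against 33.6%. Among the TAC-labelled libraries, 7 genes were highest in TAC 3, against 38.9% of all genes, and 6 were lowest in TAC 2, against 30.9%. Without Sham 2 the median of the 10 genes was -0.13, and without TAC 3 it was -0.44. Prdx1 followed another order, with a negative Pearson's r to 8 of the other 9 genes over the 6 libraries, whereas 34 of the 36 pairs without Prdx1 had a positive r. These are descriptions over libraries that share a group difference.

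Per length, as deposited, Gpx3 had a mean of 73.5 FPKM over the 6 libraries and lay above Prdx1, the next gene, in all 6, with ranges that did not overlap (46.3 to 110.1 against 26.0 to 42.1 FPKM). Prdx1 (mean 32.7 FPKM), Nqo1 (29.3), Txnrd1 (21.0) and Gpx4 (20.4) overlapped from neighbour to neighbour, and Txnrd1 was above Gpx4 in only 3 of the 6 libraries. The lowest Gpx4 value, 17.8 FPKM, was above the highest Srxn1 value, 12.96 FPKM. Below these, Srxn1 (mean 8.74 FPKM), Gpx1 (7.16), Gclc (5.49), Hmox1 (4.49) and Gclm (3.63) again overlapped from neighbour to neighbour. Divided by its listed span instead, Gpx1 would run from 4.87 to 25.2 FPKM and overlap both Srxn1 and Gpx4.

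**Figure D3:**
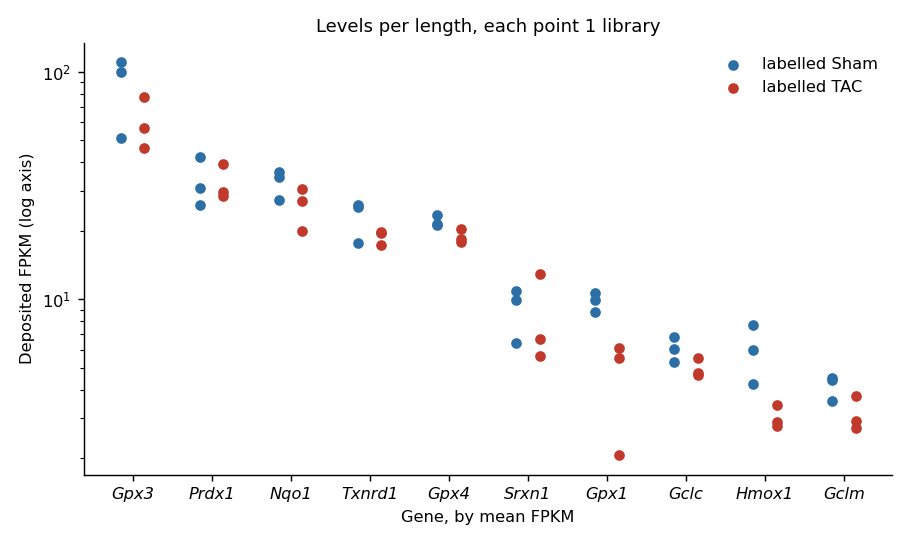
Deposited FPKM (vertical log axis) of the 10 genes, ordered by mean, with 1 point per library, blue for labelled Sham and red for labelled TAC. Gpx3 stands above the others, and at the deposited lengths Gpx4 (at least 17.8 FPKM) lies above Srxn1 (at most 12.96 FPKM).

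Markers of other cell types differed with the labels beside Hmox1, which macrophages express strongly, and Gpx1. The summed level of 8 macrophage markers was 190.0 to 342.8 CPM in the TAC-labelled libraries and 409.5 to 441.8 CPM in the Sham-labelled ones. All 8 had negative estimates and none was at 0 in every library. None passed in edgeR (5 at an unadjusted p under 0.05), and DESeq2 called 1. For these and the marker counts below, 49.1% of all genes tested had negative estimates and 20.9% an unadjusted edgeR p under 0.05. In edgeR 1.43% of all genes passed, and DESeq2 called 7.56% of the genes it adjusted. Within the TAC-labelled libraries the order differed, since TAC 3 had the lowest macrophage sum and the highest Hmox1. Of 6 fibroblast markers all were negative, none passed in edgeR (5 at an unadjusted p under 0.05) and DESeq2 called 3, with sums of 687.4 to 713.5 CPM in the TAC-labelled libraries and 1070 to 1419 CPM in the Sham-labelled ones. Of 5 activated fibroblast markers, 4 passed in edgeR, each with its higher level in the Sham-labelled libraries, and DESeq2 called all 5. With a library left out, 0 (without TAC 1, where no gene at all passed) to 5 (without Sham 1) passed in edgeR. That count was 1 without TAC 2 and 2 without TAC 3, Sham 2 or Sham 3. The 8 cardiac muscle markers had positive estimates, none passed in edgeR (5 at an unadjusted p under 0.05) and DESeq2 called 3. Their sums were 127100 to 153700 CPM in the TAC-labelled libraries and 107200 to 122700 CPM in the Sham-labelled ones. Erythroid marker sums, which bear on heme, overlapped between the groups (275.0 to 595.4 against 268.1 to 346.7 CPM), as did those of endothelial, pericyte and smooth muscle, neutrophil and adipocyte markers. Only 2 of 5 neutrophil and 2 of 5 adipocyte markers passed the filter on low counts, so these sums say little. The neutrophil sum was 12.72 CPM in TAC 1 and 0.46 to 2.24 CPM in the other libraries. The adipocyte sum (267.3 to 378.3 CPM) was nearly all Fabp4 (267.2 to 378.3 CPM). The part of these markers in the result was not tested, and in bulk tissue fewer cells of a type and less RNA per cell cannot be told apart.

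**Figure D4:**
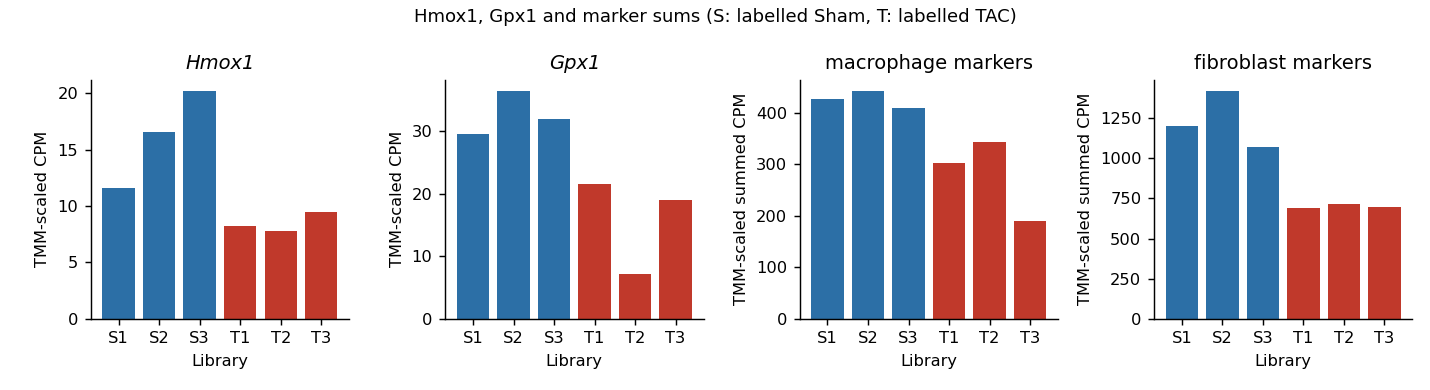
TMM-scaled CPM of Hmox1 and Gpx1 and summed CPM of 8 macrophage and 6 fibroblast markers (vertical axes, from 0) in each library, S1 to S3 labelled Sham (blue) and T1 to T3 labelled TAC (red). All 4 quantities are higher in every library labelled Sham, while the order of the libraries within a group differs between panels.

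The other genes of the pathway were taken from 8 lists. Of 17 tested genes of glutathione synthesis, breakdown and transfer, none passed in edgeR (1 at an unadjusted p under 0.05) or DESeq2, 8 were negative and 9 positive, and the median log2 difference was 0.0040. The smallest p belonged to Gsr, glutathione reductase, which had 16.1 to 16.7 CPM in the TAC-labelled libraries and 19.2 to 24.99 CPM in the Sham-labelled ones (log2 difference -0.45, adjusted p = 0.125 in edgeR). Chac2, which degrades glutathione, followed with 0.53 (adjusted p = 0.268). Slc7a11, the cystine importer, did not pass the filter on low counts.

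None of 21 glutathione S-transferases passed in edgeR (7 at an unadjusted p under 0.05), with 9 negative and 12 positive estimates and a median of 0.15. DESeq2 called 4 of them, 1 higher in the Sham-labelled libraries and 3 higher in the TAC-labelled ones, and edgeR called 1, higher in the TAC-labelled libraries, without Sham 1. Gstm7 had 33.9, 21.8 and 33.9 CPM in TAC 1, 2 and 3 and 18.2, 15.2 and 12.8 CPM in Sham 1, 2 and 3 (log2 difference 0.95, adjusted p = 0.0700 in edgeR). It passed in edgeR without a filter on low counts (adjusted p = 0.0443) and in DESeq2 (0.00236). Mgst1, a microsomal member, had the opposite sign at -0.60 (adjusted p = 0.0833 in edgeR and 0.0137 in DESeq2). The mu class genes have similar sequences, and the handling of shared reads was not stated in the labels or headers.

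None of 20 other thioredoxin, peroxiredoxin and methionine sulfoxide reductase genes passed in edgeR (5 at an unadjusted p under 0.05), with 9 negative and 11 positive estimates and a median of 0.035. Msrb2, a mitochondrial methionine sulfoxide reductase, had 26.4 to 31.7 CPM in the TAC-labelled libraries and 12.8 to 21.7 CPM in the Sham-labelled ones (log2 difference 0.73, adjusted p = 0.109 in edgeR). It was the 1 gene of this list that DESeq2 called (adjusted p = 0.0228), and it passed in edgeR without Sham 1 (adjusted p = 0.0494). Txndc12, a thioredoxin-like protein of the endoplasmic reticulum, had a log2 difference of 0.28 (adjusted p = 0.212).

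Of the 13 genes of NRF2 and its regulators none passed in edgeR (3 at an unadjusted p under 0.05) or DESeq2, 7 were negative and 6 positive, and the median was -0.02. Dpp3, a peptidase that binds KEAP1 and is listed in the table as 4930533O14Rik, had a log2 difference of -0.52 (adjusted p = 0.179 in edgeR). Mafk, a small MAF partner of NRF2, had -0.99 (adjusted p = 0.182), with 31.1 to 58.3 CPM in the TAC-labelled libraries and 54.2 to 133.7 CPM in the Sham-labelled ones. Nfe2l2 and Keap1, singled out after their values were seen because they encode NRF2 and its adaptor, had log2 differences of 0.08 (SE 0.17) and -0.02 (SE 0.10). Nfe2l2 had 67.5, 69.7 and 103.1 CPM in TAC 1, 2 and 3 and 72.9, 75.1 and 79.1 CPM in Sham 1, 2 and 3. As with Srxn1, TAC 3 was the highest library.

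Of 18 genes of NADPH supply and other NRF2-type detoxification, 12 were negative and 6 positive (median -0.15), and 1 passed in edgeR. At an unadjusted p under 0.05 edgeR gave 9 of the 18, against 20.9% of all genes. Of these 9, 7 were higher in the Sham-labelled libraries and 2 in the TAC-labelled ones. DESeq2 called 3, all higher in the Sham-labelled libraries. Akr1b8, an aldo-keto reductase, was 2.42-fold higher in the Sham-labelled libraries, with 4.95 to 6.46 CPM against 1.83 to 2.85 (log2 difference -1.28, SE 0.23, adjusted p = 0.0474 in edgeR). Akr1b8 also passed in DESeq2 (adjusted p = 6e-04) and in limma on log2(FPKM + 0.1) (0.033). In edgeR it did not pass when any 1 of the 6 libraries was left out (adjusted p from 0.0576 to 0.138), nor with the block (0.107). Without Sham 1, 2 other genes of this list passed, 1 in each direction, and without any other single library none did. Of 16 heme and iron genes none passed in edgeR (1 at an unadjusted p under 0.05) or DESeq2, 4 were negative and 12 positive (median 0.13). Slc40a1, the iron exporter ferroportin, had a log2 difference of 0.77 (adjusted p = 0.200). Ncoa4, the receptor for ferritin degradation, had 1.22 (adjusted p = 0.329), where TAC 3 stood at 23.6 CPM and the other 5 libraries between 3.67 and 4.91.

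Of 20 other selenoprotein and selenocysteine insertion genes, 9 were negative and 11 positive (median 0.036). In edgeR 1 passed (3 at an unadjusted p under 0.05), and DESeq2 called 1. Dio2, the deiodinase that activates thyroid hormone, had 6.63, 7.39 and 6.41 CPM in TAC 1, 2 and 3 and 27.8, 108.9 and 41.8 CPM in Sham 1, 2 and 3. It was 8.76-fold higher in the Sham-labelled libraries (log2 difference -3.13, SE 0.49, adjusted p = 0.0375 in edgeR and 1.93e-11 in DESeq2). Without Sham 2 it was 5.10-fold (adjusted p = 0.0131), and without TAC 1, TAC 2, TAC 3 or Sham 3 it did not pass (adjusted p from 0.0792 to 0.117), nor with the block (0.0628). Of 13 ferroptosis and lipid peroxide genes none passed in edgeR (3 at an unadjusted p under 0.05) and DESeq2 called 1, Scd1 (adjusted p = 0.046). Of these 13, 5 were negative and 8 positive (median 0.24). Scd1, a fatty acid desaturase, had a log2 difference of -0.71 (adjusted p = 0.134 in edgeR) and Lpcat3, which places polyunsaturated chains in phospholipids, 0.34 (adjusted p = 0.168).

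**Figure D5:**
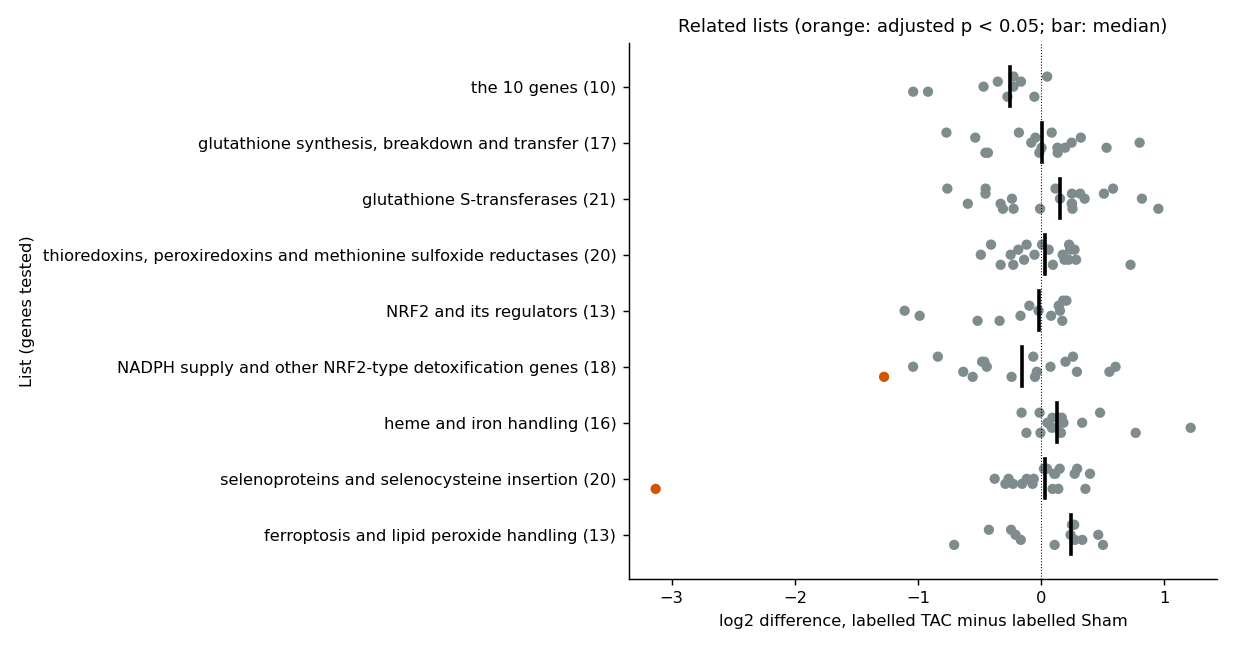
Log2 differences (horizontal axis, labelled TAC minus labelled Sham) of the 10 genes and of the tested genes in 8 related lists, 1 point per gene, with black bars for medians. Akr1b8 and Dio2 (orange) are the genes with an edgeR adjusted p under 0.05, and the list medians lie between -0.25 and 0.24.

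By likeness of pattern over the 6 libraries, among 8546 other genes with a mean of at least 10 CPM, Hmox1 was closest to Ncdn (Pearson's r = 0.996), D10Wsu102e (0.994) and Pip4k2b (0.993). Gpx1 was closest to Mmp3 (r = 0.984), Stk4 (0.983) and Myot (0.980). An r of at least 0.95 was reached by 46 genes with Hmox1 and by 16 with Gpx1. These values describe 6 libraries that share depth and a group difference, and they have no test.

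The second deposited table, of 43234 long non-coding RNA transcripts, holds 9 transcripts whose span overlaps that of a member, 4 at Txnrd1 and 5 at Prdx1. Their counts summed over the 6 libraries ran from 3 to 457. The most abundant, NONMMUT006557.2 (chromosome 10, 82872351 to 82875219), lies within the span of Txnrd1 and has a length equal to its own span of 2869 bases, so it holds no intron. It had 76, 44 and 69 counts in TAC 1, 2 and 3 and 60, 105 and 103 in Sham 1, 2 and 3. Sham 1 was the lowest of its group there, as it was for Txnrd1 itself. Reads of such a transcript and of the gene around it cannot be told apart without strand, which the tables do not give.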

How the data were processed

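Total RNA was sequenced in 6 left ventricle libraries. The authors deposited raw counts per gene and FPKM values, which are scaled by gene length and library total, per the file headers. The lncRNA table holds the same units. HISAT2 (2.0.4) and StringTie (1.3.0), with the build GRCm38 (mm10), come from the submitters' processing notes. The counter, annotation version and strand setting are not given in the sources at hand. Counts were tested over the whole gene table with edgeR 4.0.16 (quasi-likelihood, TMM, filterByExpr with a minimum count of 10, no block, Benjamini-Hochberg, adjusted p under 0.05, R 4.3.3). On simulated data only the median size of the log2 differences was required to match. The share of changed genes found and the false calls are not given here. Each SE was obtained from the log2 difference and its F statistic.

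The members and lists were chosen with earlier results of these data known. List symbols matched the table directly (190) or by gene ID (12). All members are named, and of each list the genes that passed or, where none did, the 2 with the smallest p. For likeness, the 3 closest genes to the 2 members with the smallest p are named. Alternatives were DESeq2 1.42.0, limma 3.58.1 on log2(FPKM + 0.1) and log2(FPKM + 1) at a mean FPKM of at least 0.1, quantile normalization, other scalings and filters, a replicate block and each library left out.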

Additional observations from a re-analysis of the deposited data

How the results depend on the processing

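Of 160 estimates of the 10 genes under alternatives, 8 had the opposite sign, all of Prdx1 or Srxn1. Prdx1 was below 0 with library totals not scaled by TMM (-0.021), with limma on log2(FPKM + 0.1) (-0.0069) and log2(FPKM + 1) (-0.0071), without TAC 2 (-0.11) and without Sham 2 (-0.08), and ran from -0.11 to 0.23 with a library left out. Srxn1 was above 0 without TAC 1 (0.08), TAC 2 (0.17) and Sham 2 (0.13), and ran from -0.49 to 0.17 with a library left out. The count of the 10 genes past the threshold was 2 with DESeq2, and 0 to 1 with a library left out (1 without Sham 1). The count of positive estimates was 0 with totals not scaled by TMM and with either limma pseudocount, where the median of all genes was also below 0. It was 1 to 2 with a library left out. Over all genes, 1166 passed with DESeq2, 338 without TMM, 432 without a filter, 125 with quantile normalization, and 0 (without TAC 1) to 397 (without Sham 1) with a library left out. Such fits hold fewer libraries; otherwise the cause was not tested. The Gclc to Gclm log2 difference of 0.14 was 0.094 to 0.199 with a library left out. With the replicate number as a block, 41 genes and 0 of the 10 passed. The deviations of same-numbered libraries correlated at -0.136, -0.118 and -0.0959. These values show no likeness of same-numbered libraries, but so few libraries cannot exclude a pairing. The block ended the edgeR calls of Akr1b8 (adjusted p = 0.107) and Dio2 (0.0628), and of Nppa and Acta1 (0.0734 each). Of 128 counts of calls in the 8 related lists, 19 changed by over 1.5 times or moved to or from 0. The main counts of these lists were 0 or 1.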

Other observations

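The peroxiredoxins other than Prdx1 differed in sign, and they are given here after their values were seen. Prdx3 and Prdx5, which act in mitochondria, had log2 differences of 0.23 (SE 0.10) and 0.27 (SE 0.11), labelled TAC minus labelled Sham, with groups that did not overlap, as in 27.0% of all genes tested in either direction, and edgeR adjusted p of 0.229 and 0.226. Prdx2, a cytosolic form, had 0.22, also without overlap, Prdx6 had 0.24 and Prdx4, of the endoplasmic reticulum, -0.14. Txn2 and Txnrd2, the mitochondrial thioredoxin and its reductase, had 0.10 and 0.18, while the cytosolic Txn1 had -0.25. None of these genes passed in edgeR. In the deposited table the row matched to Selenof by gene ID carries the symbol 15-Sep, a date in place of the older symbol.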
